A study of Mus musculus with 16 samples.

Results

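The contrast described here sets 2 mouse mutants against each other in brain: for every gene, the change measured after deletion of the Prader-Willi syndrome imprinting centre (PWS-IC), measured against its own wild types, minus the change in the Prepl knockout, measured against its own wild types. Membership was set by the sample titles, and it takes in 16 of the 16 libraries of the series, 4 in each of 4 groups: Prepl knockouts with a set of wild types of their own, and PWS-IC-deleted mice with a second, separate set of wild types. The stated purpose of the series was to look for molecular features shared by congenital myasthenic syndrome-22, which follows loss of PREPL, and Prader-Willi syndrome. The labels give tissue (brain) and genotype only. Age, strain, sex, brain region, the parent that transmitted the deletion and the way either allele was made are details that the sources used here do not give, and nothing says that the 4 libraries of a group came from separate animals, so every p-value below measures the spread between libraries, which may be technical. Of 43472 gene symbols in the tables, 14392 had enough reads to be tested.

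PREPL is a serine hydrolase related to prolyl oligopeptidase, and its loss in people causes weak neuromuscular transmission, low muscle tone and growth hormone deficiency. The PWS-IC is a regulatory element that keeps a block of genes, among them Snrpn, Ndn, Magel2 and Mkrn3, active on the chromosome inherited from the father. Without it on that chromosome the block falls silent. Low muscle tone in infancy is a feature of both human disorders. The mitochondrial chromosome, to which many of the results below refer, encodes parts of the respiratory complexes and of ATP synthase, plus the ribosomal and transfer RNAs needed to make them. Its genes are transcribed as long precursors that are cut into separate messages.

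RNA was counted from 3' ends, 1 read per captured poly(A) end, so values are given as counts scaled to the library's reads in genes (CPM, reads of the gene in every 1000000 reads in genes) and are not divided by length. Reads in genes ran from 3477624 to 5852716 per library. An effect is the log2 fold change of a mutant over its own wild types, and a difference is the PWS-IC effect minus the Prepl effect, so a negative difference means that the gene was lower after the deletion relative to where the knockout put it. All calls are at an adjusted p under 0.05 from edgeR's quasi-likelihood test with Benjamini-Hochberg adjustment over the 14392 genes. Library features moved with the groups. Reads aligned outside genes made up 15.98 to 19.6% of reads in the Prepl wild types, 16.1 to 19.2% in the knockouts, 11.4 to 13.7% in the PWS-IC wild types and 17.7 to 20.1% in the PWS-IC-deleted libraries, a gain of 0.696 percentage points in one model and 6.80 in the other (difference 6.10 points, exact permutation within each model, 4900 assignments, two-sided p = 0.0257, raised to as much as 0.0539 by leaving out Prepl wild type 1, PWS-IC wild type 2 or PWS-IC wild type 4). The permutation takes neither mutation to have an effect, so its p also reflects the shift in the PWS-IC model alone. It does not test whether the 2 shifts are equal. Xist and Y-linked reads put 3 female libraries and 1 male library among the Prepl wild types, 4 males among the knockouts, and 2 of each sex in both PWS-IC groups. The wild-type groups also differed from each other, with 24.4% of genes called. Neuronal markers were present at 0.364 to 0.431% of reads in genes in every group, which the brain label implies.

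The 2 effects differed at 112 genes, 0.778% of those tested. Of these, 42 (0.292% of all genes) were higher and 70 (0.486%) lower in the deletion relative to the knockout. In the same fit 18 genes were called in the Prepl knockout (0.125%) and 999 in the PWS-IC deletion (6.94%). By direction, 11 (0.0764%) were higher and 7 (0.0486%) lower in the knockout, and 621 (4.31%) higher and 378 (2.63%) lower in the deletion. The difference was mostly carried by the deletion: 90 of the 112 genes were called there and not in the knockout, 6 in the knockout and not in the deletion, 4 in both and 12 in neither. The sign of the effect was opposite in the models at 87 of the 112 genes. At 59 of the 112 the wild-type groups also stood apart (24.4% of all genes), at 42 of them in the direction opposite to the difference. The part of the wild-type gap in those differences was not tested. An unadjusted p under 0.05 was reached by 1678 genes. The split between higher and lower calls depended on the method, with 108 higher and 87 lower of 195 by DESeq2, 25.9% higher among 27 genes when a fold beyond 1.2 was required, and 2 higher of 14 when the model held reads outside genes as a covariate. Leaving out Prepl wild type 2, Prepl wild type 3 or Prepl knockout 3 lowered the 112 to 67, 73 and 74, and sex as a term raised it to 235. The 18 genes of the knockout became 28 without Prepl wild type 1 or PWS-IC wild type 2, 9 without Prepl wild type 2 and 11 without Prepl knockout 2.

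**Figure D1:**
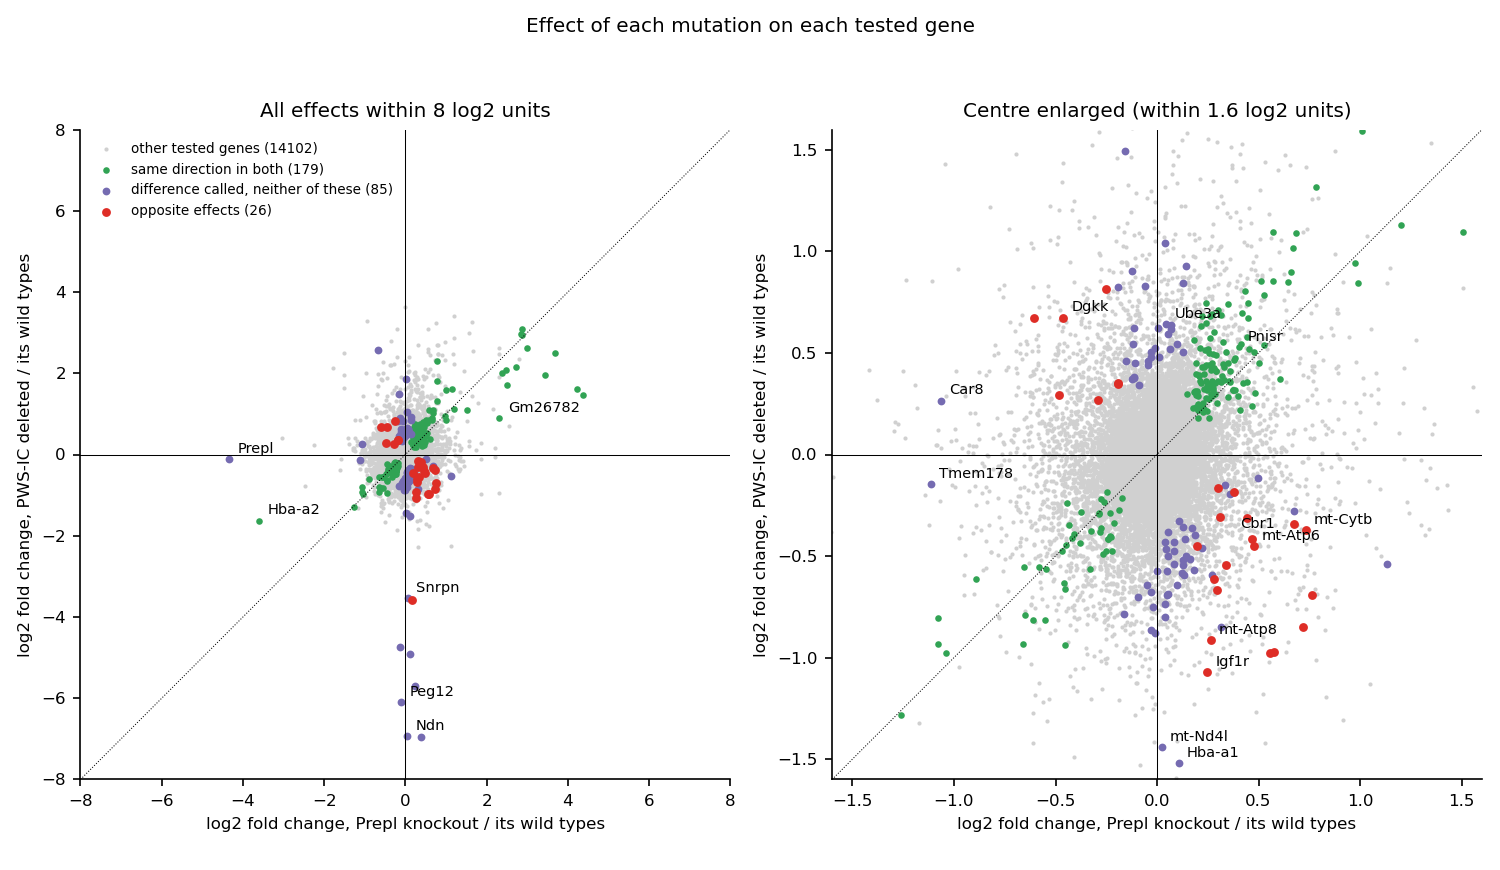
Each point is a gene tested in the fit of 16 libraries, with its log2 fold change in the Prepl knockout on the x axis and in the PWS-IC deletion on the y axis, each against its own wild types; the second panel enlarges the centre, and Xist lies outside the axes. Coloured points are genes called for the difference, genes with opposite effects (26) and genes that moved in the same direction in both models (179); most genes called for the difference lie along the y axis.

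The targeted genes checked the labels. Prepl (chr17:85063470-85090241, minus strand, mm10) was read at 33.6 to 36.5 CPM in its wild types, 1.17 to 2.18 CPM in the knockouts, 27.9 to 38.6 CPM in the PWS-IC wild types and 27.0 to 34.8 CPM after the deletion. Its difference was 4.24 ± 0.239 (log2 with SE, adjusted p = 4.79e-14), and its level after the PWS-IC deletion did not pass the test (effect -0.11). Over 134 bases the end of Prepl is 100% identical to Slc3a1, and reads there may not be separable. In the other direction, Ndn (chr7:62346569-62350262, plus strand), which encodes the growth-suppressing MAGE family protein necdin, was read at 461 to 573 CPM in Prepl wild types, 498 to 579 CPM in knockouts, 543 to 566 CPM in PWS-IC wild types and 2.17 to 6.56 CPM in the deleted libraries. Its difference was -6.98 ± 0.176 (adjusted p = 2.07e-23). The splicing protein gene Snrpn fell from 327 to 361 CPM to 24.2 to 36.0 CPM under the deletion and stayed at 361 to 413 CPM in the knockouts. All 7 tested paternally expressed genes of the block were called lower for the difference, and none of them was called in the knockout. These genes were targeted by design, so the count is a check and not a finding.

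At the borders of that block, the transcript listed as D7Ertd715e, which the annotation gives as part of the long noncoding RNA Snhg14, went from 278 to 289 CPM to 22.1 to 24.4 CPM with the deletion and was read at 278 to 339 CPM in the knockouts against 262 to 296 CPM in their wild types (difference -3.75, adjusted p = 1.28e-20). Peg12 kept 1 read after the deletion from 120 in the matching wild types, a ratio of 0.0102 with a 95% exact interval of 0.000257 to 0.0581 that covers counting error only. The lincRNA A230006K03Rik, chosen after its values were seen, had 0 reads after the deletion and 64 in the matching wild types and was at least 17.4-fold lower, at a floor of 3 counts over the group, while the Prepl wild types had 101 reads and the knockouts 127. Ube3a (chr7:59228750-59311536, plus strand), the ubiquitin ligase gene whose paternal copy is silenced in neurons by the antisense transcript, was the only one of 11 tested neighbours of the block called for the difference. Its level was 231 to 256 CPM in PWS-IC wild types and 336 to 425 CPM after the deletion, without overlap, and 252 to 271 CPM against 247 to 278 CPM in the Prepl model (difference 0.60 ± 0.105, adjusted p = 0.00204). Ube3a overlaps the annotated end of Snhg14, and the sources used here do not give the strand setting of the counting, so reads of the 2 genes may not be separable. On chromosome 17, none of the 19 genes tested around Prepl was called for the difference by edgeR or DESeq2, and 3 reached an unadjusted p under 0.05. Over all genes 0.778% were called by edgeR and 11.7% reached that unadjusted p. DESeq2 gave no adjusted p for the difference to some genes of modest level, Prepl itself among them. Its counts, here and below, may therefore cover fewer genes than a list holds.

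Most messages of the mitochondrial chromosome were called lower in the deletion relative to the knockout: 12 of its 13 messenger RNAs, against 0.486% of all genes. In the knockout 4 of 13 were called higher (0.0764% of all genes) and none lower, in the deletion 10 of 13 were called lower (2.63% of all genes) and none higher, and 9 belonged to the class with opposite effects. Their effect was above 0 for 13 of 13 in the Prepl knockout and for 1 of 13, mt-Nd6, in the PWS-IC deletion. In the knockout the smallest were mt-Nd4l and mt-Nd6, at 0.02 and 0.05, and by plain CPM, without TMM scaling, mt-Nd4l was a little lower in the knockouts (mean 180.1 against 182). The median effect was 0.29 in the knockout and -0.45 in the deletion, and the median difference was -0.88, where the medians over all genes were -0.00089, -0.012 and -0.00024. The 13 messages took up 5.99% ± 0.110 (SD, n = 4) of gene reads in Prepl wild types and 7.74% ± 0.742 (SD, n = 4) in knockouts, with libraries at 5.85 to 6.115% and 6.669 to 8.324%. They made up 5.59% ± 0.452 (SD, n = 4) in PWS-IC wild types and 4.10% ± 0.238 (SD, n = 4) in deleted libraries, with libraries at 5.209 to 6.225% and 3.949 to 4.454%. Neither model's groups overlapped in this share.

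**Figure D2:**
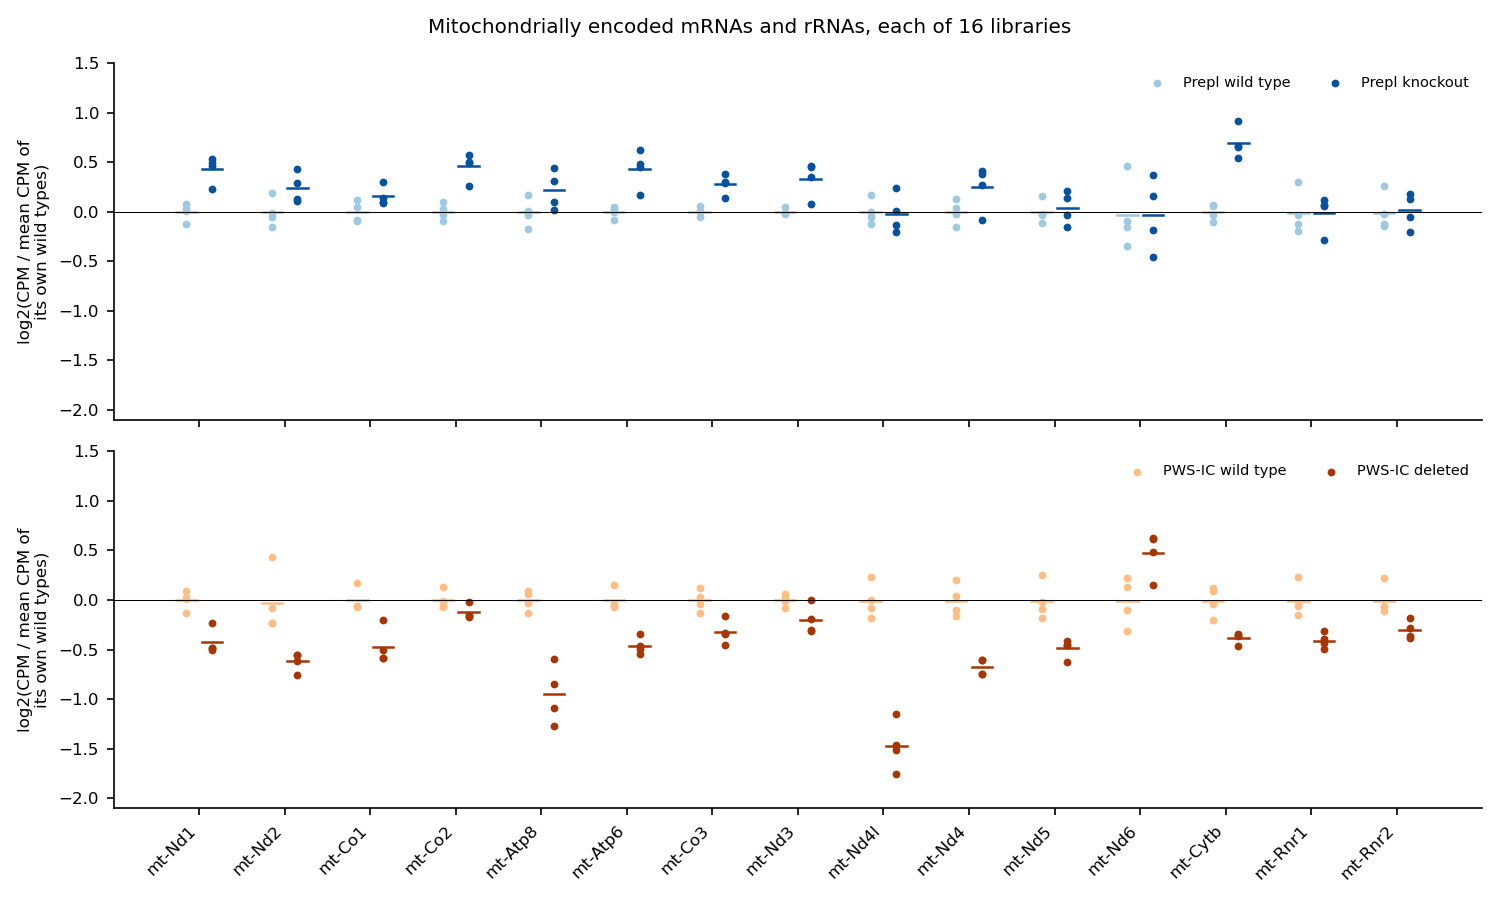
Each point is a library, and the y axis is log2 of its CPM over the mean CPM of its own wild types, for the 13 mitochondrially encoded messenger RNAs in genomic order and the 2 mitochondrial ribosomal RNAs; short lines are group means, with the Prepl model above and the PWS-IC model below. The knockout means lie above 0 except at mt-Nd4l, mt-Nd6 and mt-Rnr1, where they lie just below it, and the deletion means lie below 0 except at mt-Nd6.

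The message for cytochrome b, mt-Cytb (chrM:14145-15288), a subunit of complex III, was read at 7527, 7913, 8409 and 8434 CPM in Prepl wild types and at 11730, 12670, 12760 and 15180 CPM in knockouts. It was read at 7133, 8707, 7978 and 8921 CPM in PWS-IC wild types and at 5922, 6412, 6364 and 6445 CPM after the deletion. The groups of neither model overlapped, and the wild types of the models overlapped. The effects were 0.73 in the knockout and -0.37 in the deletion, and the difference was -1.10 ± 0.107 (SE; adjusted p = 3.33e-08). The single male among the Prepl wild types had 8434 CPM, the highest of its group and below every knockout. ATP synthase subunit a, mt-Atp6, went from 4044 to 4409 CPM up to 4809 to 6568 CPM in the knockout and from 5485 to 6429 CPM down to 3954 to 4559 CPM in the deletion (difference -0.93 ± 0.114, adjusted p = 5.59e-06). Over 297 bases the end of mt-Atp6 is 100% identical to Gm10925, so reads that fit both may have been set aside as not unique. The complex I message mt-Nd1 went from 8954 to 10290 CPM up to 11390 to 14070 CPM and from 10910 to 12690 CPM down to 8400 to 10160 CPM (difference -0.88 ± 0.111, adjusted p = 8.40e-06). These 3 genes were the only ones called in both models with opposite signs. Genes called in both with the same sign numbered 2, Gm26782 and Hba-a2, so the genes called in both models made up 5 of 18 in the knockout and 5 of 999 in the deletion.

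Among the other complex I messages, mt-Nd4 had a difference of -0.96 (adjusted p = 2.05e-05), with its effect at 0.29 in the knockout and -0.67 in the deletion. Its wild types also stood apart, at 15620 to 18990 CPM in the Prepl model and 8247 to 10640 CPM in the PWS-IC model. The differences of mt-Nd2, mt-Nd3 and mt-Nd5 were -0.89, -0.56 and -0.56. The complex IV messages mt-Co1, mt-Co2 and mt-Co3 had differences of -0.65, -0.61 and -0.62. For mt-Co2 the change lay mainly in the knockout (0.50, against -0.11 in the deletion), and for mt-Co1 mainly in the deletion (-0.45, against 0.19). The only message encoded on the other strand, mt-Nd6, had effects of 0.05 and 0.50 and did not pass the test for the difference (0.44, adjusted p = 0.533). The 2 ribosomal RNAs were called lower in the deletion, and neither was called for the difference (median difference -0.39).

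In the 4 reading frames that share a message in pairs, the largest differences fell on the first frame of each pair. These sequences show how the frames overlap; they are the last bases of the first frame and the first bases of the second on the plus strand of the mitochondrial chromosome (mm10, GENCODE transcripts), 5' to 3', and capitals mark the bases that both frames use.
mt-Nd4l, chrM:10114-10173: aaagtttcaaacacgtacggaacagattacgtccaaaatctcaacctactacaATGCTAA
mt-Nd4, chrM:10167-10226: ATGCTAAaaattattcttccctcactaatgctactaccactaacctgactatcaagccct
mt-Atp8, chrM:7910-7969: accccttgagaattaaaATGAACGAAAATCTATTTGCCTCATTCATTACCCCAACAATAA
mt-Atp6, chrM:7927-7986: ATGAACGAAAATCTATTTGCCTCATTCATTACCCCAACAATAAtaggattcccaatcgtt
The frames share 7 bases in the complex I pair and 43 in the ATP synthase pair. The upstream frame mt-Nd4l was read at 167 to 205 CPM in Prepl wild types, 158 to 214 CPM in knockouts, 124 to 166 CPM in PWS-IC wild types and 42.0 to 63.6 CPM after the deletion, so only the last group stood apart. Its difference, -1.46 ± 0.163 (adjusted p = 8.65e-07), exceeded that of its partner mt-Nd4. Over 294 bases its end is 100% identical to Gm10222, so reads that fit both may have been set aside as not unique. The upstream frame mt-Atp8 was read at 131 to 166, 150 to 200, 161 to 187 and 72.8 to 116 CPM in the same order, with a difference of -1.18 ± 0.161 (adjusted p = 3.74e-05) against -0.93 for mt-Atp6. Per 100 reads of mt-Nd4, the PWS-IC wild types had 1.309 to 1.709 reads of mt-Nd4l and the deleted libraries 0.7593 to 1.046. Per 100 reads of mt-Atp6, the same groups had 2.859 to 3.33 and 1.743 to 2.551 reads of mt-Atp8. These ratios were chosen after the values were seen and are given without a test. A read that starts at the end of the shared message belongs to the second frame, so the first frame is counted from few reads, and a read inside the shared bases can be set aside as ambiguous.

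The share of reads outside genes moved with the deletion, and when it was a covariate 2 of the 13 messages, mt-Nd4l (-1.46) and mt-Cytb (-0.67), remained called for the difference and 5 were called higher in the knockout. With sex as a term 11 of 13 remained called, 10 were lower in the deletion, and 2 were higher in the knockout. Leaving out single libraries left 10 to 12 of 13 called for the difference and 6 to 10 in the opposite class. Nuclear copies of mitochondrial sequence may hold reads of the mitochondrial genes. Gm13339 and Gm29216, pseudogenes whose sequence is 96.7% and 99.8% identical to mt-Nd2 and mt-Co1 over the aligned bases, had differences of -1.45 and -1.55 and belonged to the class with opposite effects. Gm28439, 100% identical to mt-Nd4, was called for the difference (-1.16, adjusted p = 0.0482) and did not pass in the knockout (0.32, unadjusted p = 0.109). That call held in 3 of 16 fits that left out 1 library and under 1 of 9 other alternatives.

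The nuclear genes of the same machinery showed no such contrast. None of the 36 tested nuclear subunits and assembly factors of complex I, of the 40 nuclear genes of complexes II to V or of the 75 mitochondrial ribosomal protein genes was called for the difference by edgeR, with median differences of -0.0030, 0.071 and 0.030. Of all genes, 0.778% were called for the difference by edgeR. At an unadjusted p under 0.05 these lists gave 4, 4 and 2 genes, where 11.7% of all genes passed, DESeq2 called 1, 1 and 2 and limma voom 0. Genes without an adjusted p from DESeq2 could not enter its counts in this paragraph. Of the 36 complex I genes, 4 were called higher in the deletion, where 4.31% of all genes were, and none was called in the knockout. Among genes of energy use, 25 genes of pyruvate entry and the citric acid cycle, 28 of fatty acid oxidation and 24 of cholesterol synthesis also gave 0 calls for the difference by edgeR (2, 4 and 3 genes at an unadjusted p under 0.05, and 1, 0 and 0 calls by DESeq2). The glycolytic enzyme enolase 1, Eno1, was called, at no more than 19.3 CPM in PWS-IC wild types and 24.7 to 36.8 CPM after the deletion, against 18.9 to 21.2 CPM and 16.9 to 18.9 CPM in the Prepl model (difference 1.03, adjusted p = 0.00585). Its 3' end is 99.7% identical to that of Eno1b, so reads that fit both may have been set aside as not unique or assigned to either. Txnip, an inhibitor of glucose uptake and thioredoxin, was called higher in the knockout (1.00) and had an effect of 0.21 in the deletion, but its difference did not pass the test (-0.79, adjusted p = 0.393).

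**Figure D3:**
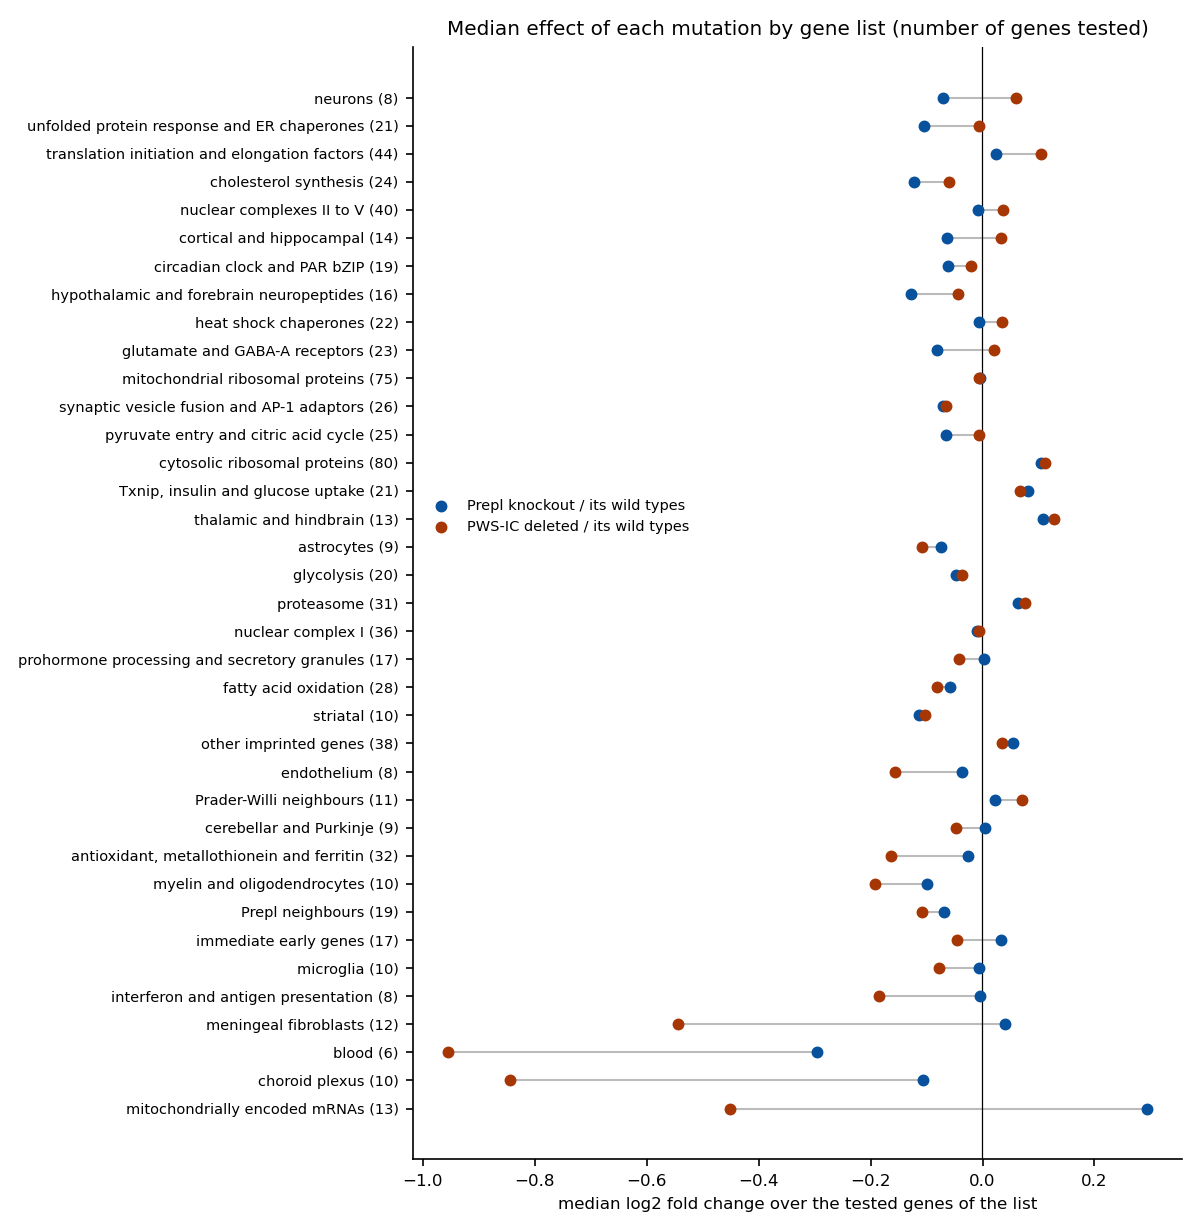
Median effect of the tested genes of each list in the Prepl knockout and in the PWS-IC deletion (log2 fold change, x axis), for lists with at least 5 tested genes, ordered by the median difference. The mitochondrially encoded messages stand at 0.29 and -0.45, while the nuclear lists of the respiratory chain lie near 0 in both models.

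Outside the mitochondrial chromosome, 17 genes had opposite effects in the models, which here means a called difference, opposite signs and an unadjusted p under 0.05 in each model. The 17 include the transcript D7Ertd715e, which was targeted by design. They also include Gm13339 and Gm29216, which may hold reads of mitochondrial genes. The whole class held 26 genes (0.181% of those tested), 7 higher in the deletion and lower in the knockout and 19 the other way round. In 17 of the 26 the wild types also stood apart, where 24.4% of all genes did. In 6 of the 26 the groups of neither model overlapped: mt-Atp6, mt-Co3, mt-Cytb, mt-Nd1, Invs and Rnf169. Over all genes 0.723% were without overlap in both models. The class requires an unadjusted p under 0.05 in each model, which itself favours genes without overlap, so the 2 shares are not comparable. The class held 14, 15 and 14 genes without Prepl wild type 2, Prepl wild type 3 and Prepl knockout 2, 89 with sex as a term and 3 with reads outside genes as a covariate.

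The insulin-like growth factor 1 receptor gene Igf1r (chr7:67952827-68233668, plus strand) had an effect below 0 in the deletion and above 0 in the knockout. Its level was 96.4, 91.6, 92.8 and 91.8 CPM in Prepl wild types and 103, 115, 95.5 and 119 CPM in knockouts. The PWS-IC model gave 32.6, 60.01, 54.4 and 43.4 CPM in PWS-IC wild types and 25.3, 18.2, 24.4 and 22.3 CPM after the deletion. The deletion gave the lowest group of the 4 without overlap, and its wild types were already below the Prepl wild types (-0.92). The effects were 0.25 and -1.07 and the difference -1.32 ± 0.185 (adjusted p = 5.08e-05). The carbonyl reductase gene Cbr1 was read at 31.1 to 56.2 CPM in Prepl wild types and 56.6 to 62.9 CPM in knockouts, and at 47.7 to 62.8 CPM in PWS-IC wild types and 40.3 to 49.9 CPM after the deletion (difference -1.02 ± 0.193, adjusted p = 0.00495). Only the Prepl groups were free of overlap for Cbr1, and Prepl wild type 3, at 56.2 CPM, lay close to the knockouts. The 3' end of Cbr1 is 95.9% identical to Gm5678 over 293 bases, and some reads may fit both. With reads outside genes as a covariate neither of these genes passed the test (Igf1r -1.18, Cbr1 -0.49).

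**Figure D4:**
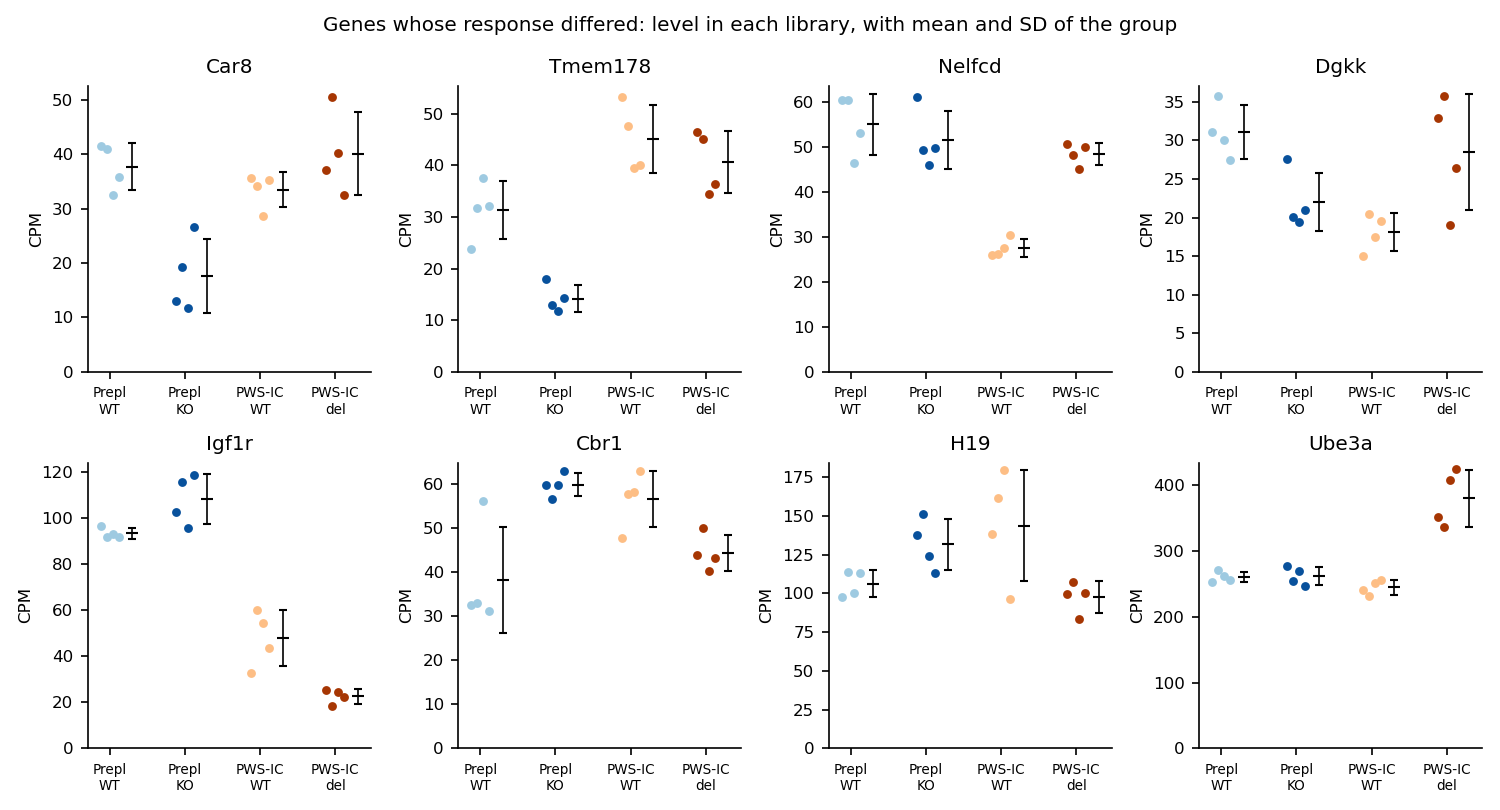
CPM (y axis, from 0) in each of the 16 libraries for 8 genes called for the difference, with the mean and SD of each group beside the points; groups are the wild types and mutants of each model. Car8 and Tmem178 are low in the knockouts, Ube3a is high in the deleted libraries, and Nelfcd and Igf1r also show the gap between the wild-type groups.

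The effects of other genes of the class were mostly small in at least 1 model. The diacylglycerol kinase gene Dgkk had effects of -0.46 and 0.67 (difference 1.14, adjusted p = 0.00862). The actin-binding thymosin gene Tmsb4x had effects of -0.19 and 0.35, and the RNA-binding protein gene Hnrnpa2b1 had effects of -0.29 and 0.27. Invs, whose product sits in cilia, and Rnf169, a ubiquitin ligase gene of DNA repair, were free of overlap in both models, with differences of 1.28 and 0.77. Effects above 0 in the knockout and below 0 in the deletion were found for the imprinted noncoding RNA H19 (0.34 and -0.54), the Wnt regulator gene Amer2 (0.44 and -0.31), the autophagy receptor gene Calcoco1 (0.72 and -0.85) and the transcription factor gene Tcf12 (0.30 and -0.17). Mdga2, a synaptic adhesion gene, had effects of -0.19 and 0.35, and 1110034G24Rik had effects of 0.56 and -0.98.

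A smaller group of differences came from the knockout. Car8 (chr4:8143362-8239041, minus strand), a carbonic anhydrase relative found in Purkinje cells, was read at 41.6, 41.0, 32.6 and 35.8 CPM in Prepl wild types and at 13.1, 19.3, 11.7 and 26.6 CPM in knockouts. In the PWS-IC model the values were 35.7, 34.3, 28.8 and 35.2 CPM in PWS-IC wild types and at 37.1, 50.6, 40.3 and 32.6 CPM after the deletion. The knockouts were below all other libraries, and the PWS-IC groups overlapped (effects -1.06 and 0.27, difference 1.33 ± 0.244, adjusted p = 0.00344). Of the 9 tested cerebellar and Purkinje cell genes, Car8 was the only one called for the difference (0.778% of all genes were), and the median difference of that list was -0.075. Tmem178 (chr17:80944632-81001816, plus strand), on the same chromosome as Prepl, was read at 23.9 to 37.6 CPM in Prepl wild types and 11.7 to 17.9 CPM in knockouts, and at 39.5 to 53.3 CPM and 34.5 to 46.4 CPM in the PWS-IC model (difference 0.97, adjusted p = 0.0192). That call was lost in 5 of 16 fits that left out 1 library. Xist, the X-inactivation RNA, was called for the difference too, and its difference of 9.36 moved with the sex imbalance of the Prepl groups given above.

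Most genes called for the difference were called in the deletion and not in the knockout. Nelfcd, a subunit of the factor that pauses RNA polymerase II, was read at 26.0 to 30.5 CPM in PWS-IC wild types and 45.2 to 50.5 CPM after the deletion, against 46.4 to 60.3 CPM and 46.0 to 61.0 CPM in the Prepl model (difference 0.89, adjusted p = 0.00171). Its deleted libraries lay close to the Prepl libraries, and its wild types differed (-0.95). Gm5844, a pseudogene 98.5% identical to the chaperone gene Hsp90aa1, had a difference of 0.79 (adjusted p = 9.86e-05), whereas Hsp90aa1 itself had 0.37 and did not pass the test (adjusted p = 0.111). The 3' end of Gm5844 is 99.7% identical to Hsp90aa1 over 300 bases. Reads that fit both may have been set aside as not unique or assigned to either. Hsp90ab1 was the called member of 22 heat shock chaperones (0.38). Eif3a was the called member of 44 translation factors (0.47). Of all genes, 0.292% were called higher for the difference. The transcription factor genes Tef (0.74), a clock output gene, and Neurod2 (0.53), of cortical and hippocampal neurons, were higher. The calls for E4f1 (1.02) and Tmem17 (1.00) held in 3 and 4 of 16 fits with 1 library removed, and that for Eif3a in 6 and that for Hsp90ab1 in 4.

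Some genes of blood and of the coverings of the brain were lower in the deletion relative to the knockout. Of 12 tested genes of meningeal fibroblasts, 3 were called lower for the difference (Igf2 -0.83, Col1a2 -0.78, Col3a1 -0.84), against 0.486% of all genes, and 6 were called lower in the deletion, against 2.63%, with median effects of 0.041 and -0.54. Of 6 blood genes, the haemoglobin gene Hba-a1 was called (-1.63, adjusted p = 0.000731), at 693, 1050, 698 and 405 CPM in PWS-IC wild types and 211 to 284 CPM after the deletion. It was the only blood gene called for the difference, although 4 of the 6 were called lower in the deletion. Its 3' end is 99.7% identical to that of Hba-a2, so reads that fit both may have been set aside as not unique or assigned to either. Hba-a2 had a difference of the other sign that did not pass the test (1.98, adjusted p = 0.364). The beta-globin gene Hbb-bt had a difference of -0.49 that did not pass the test (adjusted p = 0.531). Of 10 choroid plexus genes, none was called for the difference by edgeR or DESeq2, 5 reached an unadjusted p under 0.05 (11.7% of all genes did) and 4 were called lower in the deletion, with median effects of -0.11 and -0.84. A gene without an adjusted p from DESeq2 could not be called by it. Ttr, the transthyretin gene that marks choroid plexus, was read at 1297 to 2055 CPM in PWS-IC wild types and 334 to 1607 CPM after the deletion (difference -1.02, adjusted p = 0.225). The 3 meningeal calls became 1 without PWS-IC wild type 3, 6 without PWS-IC wild type 4 and 0 with reads outside genes as a covariate, and 2 choroid plexus genes were called without deleted library 4, which had the 1607 CPM of Ttr. The summed share of the meningeal genes was 0.128 to 0.143%, 0.130 to 0.150%, 0.0788 to 0.152% and 0.0713 to 0.0811% of reads in genes in Prepl wild types, knockouts, PWS-IC wild types and deleted libraries. That of the blood genes was 0.0661 to 0.115%, 0.0629 to 0.0834%, 0.180 to 0.397% and 0.121 to 0.163%. In bulk tissue, fewer cells of a type and less RNA per cell cannot be told apart, and the part of tissue taken with each brain in these differences was not tested.

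The imprinted growth gene Igf2 is also counted among 38 imprinted genes outside the Prader-Willi region, of which 3 were called lower for the difference, against 0.486% of all genes. The 3' end of Igf2 is 100% identical to part of Gm49394, and the reads of the 2 may not be separable. Besides Igf2 these were H19 and Nnat, the latter with effects of 0.34 and -0.15 and a difference of -0.49 (adjusted p = 0.0206). H19 and Igf2 are neighbours on chromosome 7. In 16 hypothalamic and forebrain neuropeptide genes, 17 genes of prohormone processing and secretory granules, 26 of synaptic vesicle fusion and AP-1 adaptors, 23 glutamate and GABA-A receptor genes, 17 immediate early genes and 31 proteasome genes, none was called for the difference by edgeR. At an unadjusted p under 0.05 they gave 0, 2, 3, 1, 0 and 5 genes, and DESeq2 called 0, 2, 1, 0, 0 and 0. These DESeq2 counts leave out any gene to which it gave no adjusted p. Over all genes 0.778% were called by edgeR and 11.7% had an unadjusted p under 0.05. In lists of this size 0 calls is near that share.

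More genes met the rule for moving in the same direction than that for opposite effects, which use different tests. A gene was counted as moving in the same direction when the mean of its 2 effects passed an adjusted p of 0.05, the signs agreed and each effect had an unadjusted p under 0.05. Of the tested genes, 179 (1.24%) met this, 135 (0.938%) higher and 44 (0.306%) lower in both mutants, against 26 with opposite effects. The models have separate wild types, so no control library enters both effects. Of the 179 genes, 102 were called in the deletion on its own and 4 in the knockout, 130 had the larger absolute effect in the deletion, and in 48 the groups of neither model overlapped. Over all genes 0.723% were without overlap in both models, and the rule's unadjusted p under 0.05 in each model itself favours such genes. Of the 999 genes called in the deletion, 695 (69.6%) had the same sign in the knockout, and of the 18 called in the knockout 11 (61.1%) had the same sign in the deletion, where 55.7% of all genes did. Across the 14392 genes, which are not independent, Pearson's r of the effects was 0.179 and Spearman's rho 0.142. The wild types stood apart at 79 of the 179, where they did at 24.4% of all genes. Leaving out Prepl wild type 2 lowered the 179 to 108, and reads outside genes as a covariate lowered it to 18. With sex as a term 217 genes met the rule, and 101 of the 179 were among them.

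Some ribosomal protein genes were higher in both mutants. Of 80 cytosolic ribosomal protein genes, 10 were higher in both models, where 0.938% of all genes were, and 69 had an effect above 0 in the knockout and 56 in the deletion, with medians of 0.10 and 0.11. Rpl4 (chr9:64173375-64178666, plus strand) was read at 660, 787, 809 and 897 CPM in Prepl wild types and at 932, 858, 849 and 951 CPM in knockouts. The other model gave 760, 569, 664 and 793 CPM in PWS-IC wild types and at 1146, 1144, 1044 and 1098 CPM after the deletion. The Prepl groups overlapped and the PWS-IC groups did not (mean effect 0.45 ± 0.063, adjusted p = 6.11e-05). The others were Rpl21, Rpl28, Rps24, Rpl36a, Rpl30, Rpl13a, Rpl5, Rpl23 and Rpl11, and leaving out Prepl wild type 1 reduced the 10 to 3 and the median in the knockout to 0.039. Leaving out Prepl wild type 2 or knockout 1 reduced the 10 to 5, as did the covariate for reads outside genes, and the sex term reduced it to 6.

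**Figure D5:**
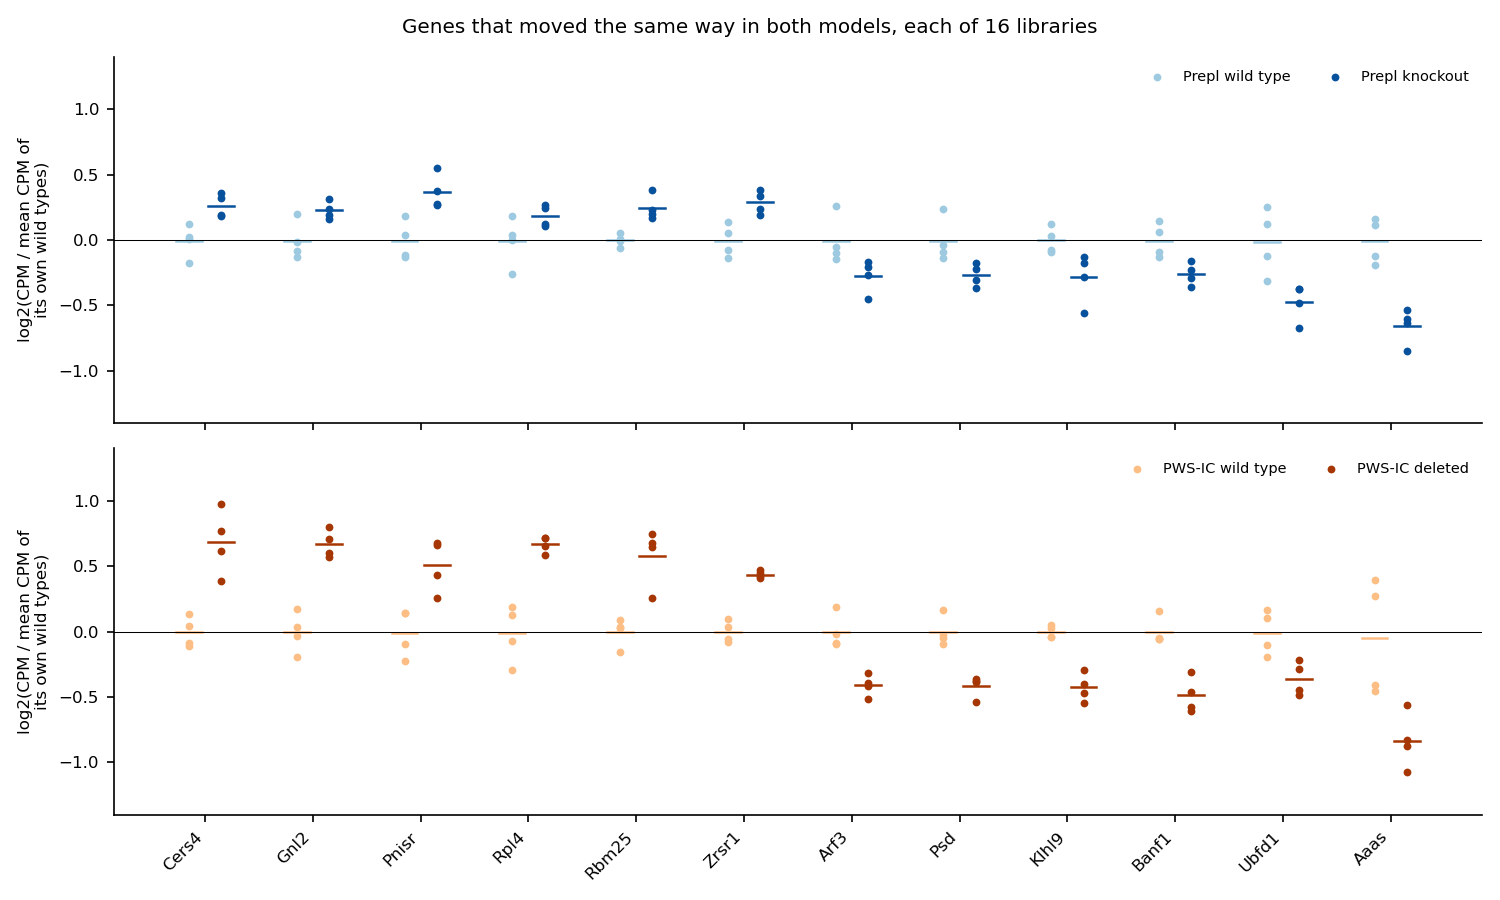
Each point is a library, and the y axis is log2 of its CPM over the mean CPM of its own wild types, for 12 genes that moved in the same direction in both models; short lines are group means. Cers4, Pnisr, Rbm25 and Zrsr1 are higher in both mutants and Arf3, Psd, Klhl9 and Banf1 lower in both, with no overlap in either model.

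Cers4 (chr8:4493026-4531680, plus strand), a ceramide synthase gene, was read at 102, 116, 117 and 125 CPM in Prepl wild types and at 147, 130, 131 and 144 CPM in knockouts. It was read at 71.3, 70.0, 83.0 and 77.9 CPM in PWS-IC wild types and at 116, 98.5, 129 and 148 CPM after the deletion. Each mutant group lay above its own wild types, from different starting levels (effects 0.30 and 0.71, mean 0.50 ± 0.066, adjusted p = 1.55e-05). Rbm25 and Pnisr, both tied to splicing, had effects of 0.28 and 0.60 and of 0.41 and 0.53. The imprinted splicing factor gene Zrsr1 had effects of 0.33 and 0.45. The nucleolar GTPase gene Gnl2, which acts in ribosome assembly, had effects of 0.26 and 0.68. Ndufa5, of complex I, and Hspe1, the mitochondrial co-chaperonin gene, were higher in both (0.35 and 0.45, and 0.24 and 0.65), and so was the proteasome gene Psmb7 (0.23 and 0.43).

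Genes lower in both included Banf1 of the nuclear envelope (-0.22 and -0.48), Aaas of the nuclear pore (-0.61 and -0.82), the small GTPase gene Arf3 (-0.23 and -0.40) and Psd, an exchange factor gene for such GTPases (-0.23 and -0.41). The 3' end of Psd is 100% identical to part of Nfkb2, and their reads may not be separable. The ubiquitin ligase adaptor gene Klhl9 had effects of -0.24 and -0.42, and the ubiquitin-domain gene Ubfd1 had -0.43 and -0.35. Slc16a1, the transporter of lactate and ketone bodies, was read at 46.7 to 58.3 CPM in Prepl wild types and 24.6 to 45.5 CPM in knockouts, and at 30.5 to 37.1 CPM in PWS-IC wild types and 23.0 to 28.0 CPM after the deletion (mean effect -0.42 ± 0.096, adjusted p = 0.0104). Its 2 effects, -0.42 and -0.41, differed by 0.01 ± 0.195 (adjusted p = 0.995), and an adjusted p of that size does not show that they are equal. Manf, of the endoplasmic reticulum stress response, had -0.32 and -0.38, the kinase gene Camk2a -0.28 and -0.36, and the astrocytic gap junction gene Gja1 -0.28 and -0.22. With sex as a term neither Camk2a nor Gja1 kept its call, and that of Gja1 held in 8 of 16 fits that left out 1 library.

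Within the 179 genes, the smallest p of the mean effect was that of Gm26782 (chr14:50870324-50880603, plus strand), annotated as an antisense RNA. It was read at 3.32, 3.96, 5.35 and 2.10 CPM in Prepl wild types and at 12.5, 25.2, 15.6 and 19.5 CPM in knockouts. It was read at 20.5, 20.3, 23.1 and 20.2 CPM in PWS-IC wild types and at 42.1, 39.2, 38.8 and 35.2 CPM after the deletion. Both mutants lay above their wild types, and the knockouts reached about the level of the PWS-IC wild types. The mean effect was 1.603 ± 0.139 (adjusted p = 2.84e-09), and as the effects were 2.31 and 0.89 it was also the only gene of the 179 called for the difference (-1.42, adjusted p = 0.00773). Hba-a2 had a mean effect of -2.62, but its Prepl wild types were at 2.43, 48.7, 1.38 and 50.9 CPM and overlapped the knockouts at 1.59 to 2.38 CPM, so 2 libraries set its effect in that model. A mean effect above 2 was reached by 12 genes of the class, and all 12 had a mean log2 CPM below 2.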

How the data were processed

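Sequencing was of 3' ends of poly(A) RNA (QuantSeq, per the labels' protocols) from 16 mouse brain libraries. The authors deposited whole-number read counts per gene symbol. HISAT2, HTSeq and mm10 are named in the submitters' processing notes, and for versions, annotation and strand setting the entry is: not given in the sources used here. Rows that name no gene (5 per table) were left out of library sizes and tests, which left 38.1 to 46.4% of all reads as reads in genes. One of these rows held reads without a unique alignment, at 25.2 to 30.9% of all reads per library. Groups came from the sample titles.

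Counts were fitted in 1 model of 4 group means over 16 libraries with edgeR 4.0.16 (R 4.3.3; filterByExpr with a minimum count of 10 and total of 15; TMM; quasi-likelihood test; Benjamini-Hochberg over 14392 genes). The contrast, each effect and their mean came from this fit. The test of the difference was also run on simulated counts, and the outcome is not given here. That simulation changed genes only in the PWS-IC-deleted group. It held no gap between wild types, sex imbalance or shift in reads outside genes, so it does not cover those features. CPM are relative to reads in genes, without TMM. Replicates differed beyond sampling noise in every pair.

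Members, gene lists (41) and tests were chosen with earlier results of these data known. Genes named were the targeted genes, the 8 largest differences per direction with no overlap in 1 model and a mean log2 CPM of 3 or more, the 8 opposite and 8 same-direction genes per direction with the smallest p, and up to 3 called members per list (2 for the same direction). The other genes with opposite effects, the 10 ribosomal protein genes, the remaining mitochondrial messages, Txnip, Ttr and the pseudogene copies were named after their values were seen. Some genes that the rule chose are not reported here. Positions and sequences are from GENCODE M21 (GRCm38), in which 97.1% of tested genes matched.

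Alternatives were RLE factors, DESeq2 1.42.0, limma 3.58.1 voom, other filters, a minimum fold of 1.2, sex or reads outside genes as a term, a replicate block, mitochondrial genes left out, separate fits and leaving out each library; leaving out libraries for the share of reads outside genes was added after seeing the data.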

Additional observations from a re-analysis of the deposited data

Results flagged for a closer look

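The difference between the effects passed edgeR's test (adjusted p under 0.05) at the 37 genes listed here, which are given because the models differed. In the targeted genes the log2 differences were 4.24 for Prepl, -6.98 for Ndn, -5.95 for Magel2, -4.59 for Mkrn3, -6.00 for Peg12, -3.60 for Snrpn, -3.75 for D7Ertd715e and -5.01 for A330076H08Rik. Ube3a had 0.60. The mitochondrially encoded messages had -1.46 for mt-Nd4l, -1.18 for mt-Atp8, -1.10 for mt-Cytb, -0.93 for mt-Atp6, -0.88 for mt-Nd1 and -0.96 for mt-Nd4, and the nuclear copy Gm28439 had -1.16. Genes higher in the deletion relative to the knockout were Car8 (1.33), Eno1 (1.03), E4f1 (1.02), Tmem17 (1.00), Tmem178 (0.97), Nelfcd (0.89), Gm5844 (0.79), Tef (0.74), Neurod2 (0.53), Eif3a (0.47) and Hsp90ab1 (0.38). Xist had 9.36, and it moved with the sex of the libraries. Genes lower in the deletion relative to the knockout were Hba-a1 (-1.63), Gm26782 (-1.42), Igf1r (-1.32), Cbr1 (-1.02), H19 (-0.89), Col3a1 (-0.84), Igf2 (-0.83), Col1a2 (-0.78) and Nnat (-0.49). The share of reads outside genes rose by 6.10 percentage points more in the PWS-IC model. There the deleted libraries exceeded their wild types by 6.80 points. These reads are counted for no gene, and their share entered the gene fits only as a covariate.

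Single libraries lay far from the other 3 of their group in 20 of the 252 groups examined, and chance alone would give about 1 in 20. Prepl wild type 1 stood apart for Ndn (460.8 CPM), Hbb-bt (225.0 CPM), Gja1 (108.7 CPM) and the share of reads outside genes (19.6%). Among the other Prepl wild types this held for Cbr1 in library 3 (56.21 CPM) and for Nhlh2 in library 4 (53.52 CPM), the only male. Among the knockouts it held for Snrpn (413.4 CPM) and Hba-a1 (235.9 CPM) in library 4 and Hsp90ab1 in library 1 (2797 CPM). Among the PWS-IC wild types it held for Magel2 in library 4 (28.56 CPM), Gm26782 in library 3 (23.11 CPM), Gm28439 (12.81 CPM) and Itm2a (45.96 CPM) in library 1, and mt-Atp6 (6429 CPM) and Banf1 (196.3 CPM) in library 2. Among the deleted libraries it held for Peg12 (0.2406 CPM), mt-Cytb (5922 CPM), Psmb7 (184.1 CPM) and Tef (87.34 CPM) in library 1 and mt-Nd1 in library 2 (10160 CPM).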

How the results depend on the processing

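Counts are given in the order difference, Prepl knockout, PWS-IC deletion, opposite effects, same direction and called in both models, which were 112, 18, 999, 26, 179 and 5 as reported. RLE factors, limma voom and the filter of 1 CPM in 8 libraries kept all 6 counts within 1.5 times. DESeq2 gave 195 for the difference (55.4% higher, against 37.5%), 35 for the knockout and 8 in both. With no filter on low counts the difference, the knockout, the opposite class and both models gave 222, 106, 59 and 29. A minimum fold of 1.2 gave 27, 5, 198, 3, 11 and 1. Sex as a term gave 235 for the difference, 36 for the knockout, 89 opposite and 8 in both. With reads outside genes as a covariate the difference had 14, the deletion 25, the opposite class 3, the same direction 18 and both models 0, with PWS-IC groups whose shares do not overlap. Without the mitochondrially encoded genes the opposite class had 14 and both models 2. That fit could not include the 9 such genes of the opposite class, nor the 3 called in both models. Fits of each model on its own 8 libraries called 36 and 616, with 8 in both. Apart from the genes left out, the causes of these changes were not tested.

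Leaving out 1 library gave 67 to 134 for the difference, 9 to 28 for the knockout, 701 to 1114 for the deletion, 14 to 36 opposite, 108 to 209 in the same direction, 4 to 7 in both, and 5.22 to 6.61 points for the share of reads outside genes. Single libraries moved other counts by over 1.5 times: the knockout gave 28 without Prepl wild type 1 or PWS-IC wild type 2, 9 without Prepl wild type 2 and 11 without Prepl knockout 2, and the opposite class gave 14, 15 and 14 without Prepl wild type 2, Prepl wild type 3 and Prepl knockout 2. The share of reads outside genes lost its call (5.22, 5.92 and 5.805 points) without Prepl wild type 1, PWS-IC wild type 2 and PWS-IC wild type 4. Same-numbered libraries correlated at -0.103 to 0.0554 in the Prepl model and 0.0693 to 0.383 in the other, where different-numbered libraries gave 0.181 to 0.496 within a sex and -0.486 to -0.105 between the sexes. Not every library correlated best with its own number, and the numbers were not taken to pair the libraries. The replicate block gave 148 for the difference, 40 for the knockout and 9 in both. Of the 40 differences that the naming rule chose 28 kept their call in every fit that left out 1 library. As few as 12 also kept it under every other alternative that gave the gene an adjusted p. DESeq2 gave none to some of these genes, Prepl, Magel2, Mkrn3 and Peg12 among them. The fit without mitochondrial genes could not include the mitochondrial messages. Of 26 same-direction genes 23 and 2 kept their calls in this way. None of the 40 or the 26 reversed.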

Other observations

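Some lists with few or no called genes leaned in 1 direction, and these leanings are given as counts only. Of 21 tested genes of the unfolded protein response and endoplasmic reticulum chaperones, 3 had an effect above 0 in the knockout, 10 in the deletion, and 17 a difference above 0. None was called for the difference by edgeR, DESeq2 or limma voom, 4 reached an unadjusted p under 0.05 (11.7% of all genes did), and Manf was lower in both models. DESeq2 could call only genes to which it gave an adjusted p. Of 24 genes of cholesterol synthesis, 2 had an effect above 0 in the knockout and 9 in the deletion. Of 10 genes of myelin and oligodendrocytes, 2 were above 0 in the knockout and 1 in the deletion, and 1 was called lower in the deletion, against 2.63% of all genes. Of 31 proteasome genes, 22 were above 0 in the knockout and 20 in the deletion, and 7 were called higher in the deletion, where 4.31% of all genes were.

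Nhlh2, a transcription factor gene of hypothalamic neurons, was higher in both models (0.35 and 0.28, mean 0.31, adjusted p = 0.0239), with overlap in both and a call that was lost in 5 of 16 fits that left out 1 library. Itm2a, a membrane protein gene of vessel walls, was lower in both without overlap in either (-0.38 and -0.43). RP23-109J14.2 was read at 4.65 to 6.48 CPM in Prepl wild types and 9.72 to 14.02 CPM in knockouts, and at 1.51 to 2.56 CPM in PWS-IC wild types and 4.03 to 8.97 CPM after the deletion, the same direction from different starting levels.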
